A study of Mus musculus with 3 samples.

Results

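The genes described here are 35 components and regulators of epithelial cell architecture, namely keratins, desmosome proteins, adherens and tight junction proteins, and the transcription and splicing factors that set the epithelial state. They are typical of epithelium, the tissue that adjoins the dental papilla sampled here. Members were taken as the probe sets whose only gene symbol in the platform annotation is on the list. This gave 65 probe sets for 34 genes, of 18193 genes on the array; no probe set carried the symbol of the desmosomal cadherin Dsg3 alone, and 1 probe set annotated to both Krt14 and Krt17 was left out. The samples were dental papillae from ICR mice, at 2 prenatal stages, embryonic day 16 (E16) and embryonic day 18 (E18), and at postnatal day 3 (P3), freed by an enzyme treatment from the germs of the lower first molar, with RNA pooled over more than 20 papillae and amplified in 2 cycles of labelling. Each stage has 1 array, so no test, standard error or p-value is possible, and every difference is between single pooled samples. Precision is limited by this number of arrays.

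A tooth germ is built from an epithelial enamel organ, which makes the ameloblasts, and a mesenchymal papilla, which makes the odontoblasts and the pulp; the epithelium caps the papilla and a basement membrane lies between them. Epithelial cells hold together through desmosomes, in which cadherins bind neighbouring cells and plaque proteins tie them to keratin filaments, through adherens junctions built on E-cadherin, and through tight junctions sealed by claudins and occludin. Mesenchymal cells largely lack these structures.

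Values are given as recovered signals, array intensities worked back from the deposited ratios, which hold only each probe set's values relative to one another. A signal may be understated by a factor that is the same on all 3 arrays, so ratios between arrays are kept. Signals of different genes are not compared gene by gene. The floor, the choice of 1 probe set per gene and the summed signals given further on do depend on these levels. A gene may therefore lie below the floor because its signal is understated. Signals under 82.0, the median over all probe sets, were treated as not measured and set to that floor for a fold, which is then a bound and is written "at least". A gene with several probe sets is given by the one with the highest mean signal, called the brightest. The spread between probe sets is the only look at error, and it does not cover error between arrays or samples. Over all genes, another probe set with signal on both arrays differed from the brightest by a median log2 of 0.54 at E18 against E16. At P3 against E18 the median was 0.48. Among members these medians were 0.55 and 0.41, over 6 probe sets each. At E18 against E16, 23.3% of these probe sets over all genes and 33.3% among members differed by 1 or more, which is 2-fold. At P3 against E18 the shares were 18.5% and 0%. Hybridisation spike-ins read a median of 2.17 times their E16 level at E18 and 1.04 times at P3. The 3′ over 5′ ratio of actin was 3.87 and 2.46 times that of E16, and the ratio of Gapdh 1.42 and 0.355 times; the part of these in the results was not tested. Of the papilla's own transcription factors, 11 of 13 had a probe set, and all 11 were at or above the floor on each array.

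Most members were higher at E18 than at E16 and lower again at P3, by differences of any size. Of 26 members at or above the floor on any array, 11 passed 2-fold at both steps in these directions. Of all genes, 371 of 12535 did. Of 26 members measured at E18 against E16, 12 were 2-fold or more higher and 0 lower, where 8.1% of 12030 measured genes were higher and 8.13% lower. Of 25 members measured at P3 against E18, 17 were lower by 2-fold or more and 0 higher, where 11.8% of 12112 genes were lower and 4.07% higher. The median log2 difference of the measured members was 0.91 at the first step and -1.64 at the second, and that of all measured genes -0.04 and -0.15. Both steps use the E18 array, so an error of that array would move them in opposite directions. In bulk RNA, fewer cells of a type and less RNA per cell cannot be told apart. A member that reached the floor on 1 array alone could only differ one way, so the deposited ratios of all 34 genes were read too, with no floor: 27 were higher at E18 than at E16 (8775 of all 18193 genes) and 29 were lower at P3 than at E18 (9963 of all). The medians of these unfiltered ratios were 0.86 and -1.52.

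**Figure D1:**
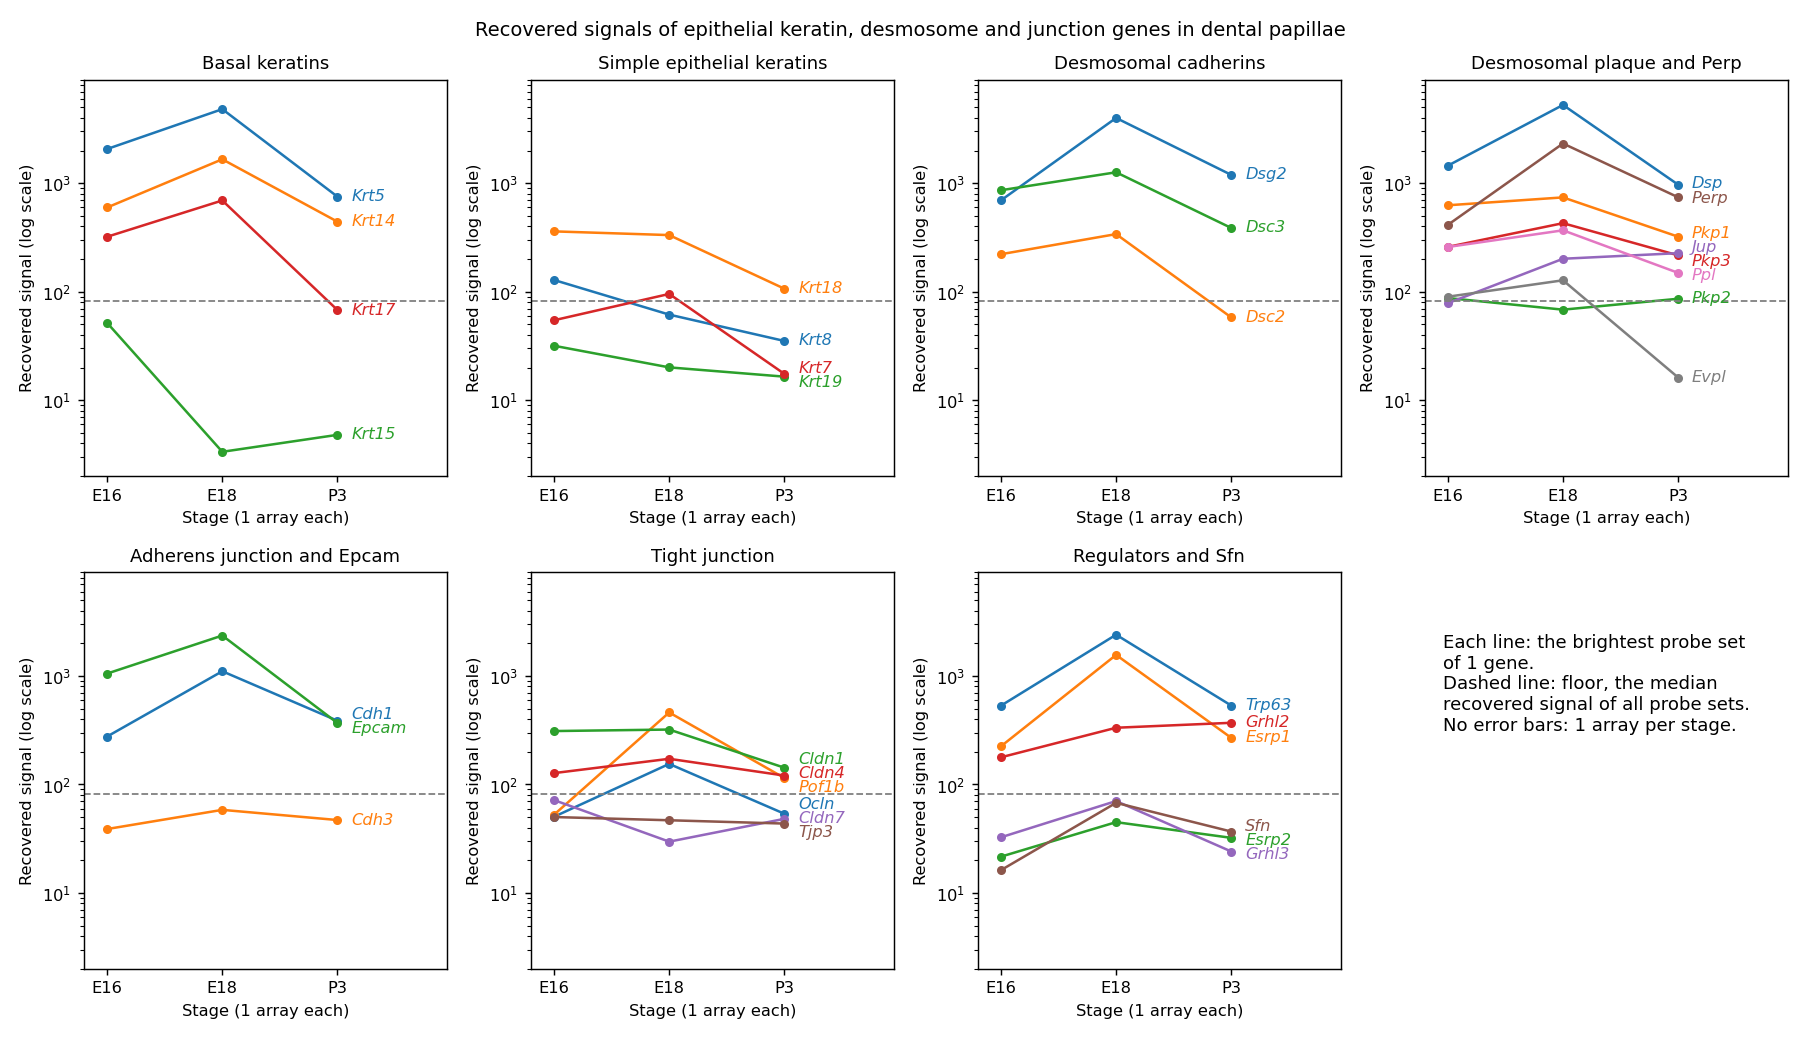
Recovered signal (log axis) of the brightest probe set of each of 34 genes on the E16, E18 and P3 arrays, in panels by role; the dashed line is the floor of 82.0 and there are no error bars because each stage has 1 array. Krt5, Dsp, Perp, Cdh1, Trp63 and Esrp1 stand highest at E18, Krt8 and Krt19 are highest at E16, and Jup and Grhl2 are highest at P3.

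Between the first and the last stage more members were lower than higher, as was so over all genes, and the share higher was near that of all genes. At P3 against E16, 24 members were measured; 2 were 2-fold or more higher and 7 lower, against 6.57% and 15.6% of 12189 genes, and the median log2 difference was -0.35 against -0.17 for all genes. Quantile normalization changed this split to 4 higher and 5 lower, against 10.1% and 10.5% of all genes. The lower ones were Krt5, Krt17, Krt18, Dsc2, Dsc3, Epcam and Cldn1. The higher ones were Jup, at least 2.77-fold because E16 was under the floor, and Grhl2 by its brightest probe set. Another Grhl2 probe set was 1.51-fold lower. Among members, other probe sets with signal on both arrays differed from the brightest by a median of 1.18 (log2, n = 7) in this comparison, more than the 2-fold threshold, against 0.53 over all genes.

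The basal keratins form the filaments of the epithelial cells that face the basement membrane. Krt5, the type II partner of that pair, had signals of 2069 at E16, 4821 at E18 and 752 at P3. The E18 value was 2.33-fold above E16 and P3 was 6.41-fold below E18, which left P3 2.75-fold under E16. Krt14, its type I partner, read 598, 1663 and 442 by its brightest probe set, 2.78-fold higher at E18 and then 3.76-fold lower. A second Krt14 probe set gave 264, 659 and 118, the same order of arrays with P3 5.57-fold below E18, whereas another lay near the floor (79.3, 81.9 and 127) and was at least 1.54-fold higher at P3. Krt17, a keratin of hair, nail and other ectodermal appendages, read 321, 694 and 67.8, 2.16-fold higher at E18 and then at least 8.46-fold lower. Its other probe set was below the floor on all 3 arrays. Krt15, a keratin of basal progenitors, was below the floor throughout, at 51.7, 3.35 and 4.80. All 3 measured basal keratins were thus higher at E18 and lower at P3.

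The simple epithelial keratins, which fill single-layered epithelia, had no member 2-fold or more higher at E18. Of 3 measured at that step, 0 were called at 2-fold in either direction by the brightest probe set. For Krt8 and Krt7 that fold is a bound. With no floor, the deposited ratios put E18 2.09-fold under E16 for Krt8 and 1.75-fold above it for Krt7. Krt18 read 360 at E16, 333 at E18 and 107 at P3, a difference of 1.08-fold at the first step and 3.12-fold lower at the second. Krt8, the type II partner of Krt18, read 128, 61.6 and 35.2, so that E18 lay at least 1.57-fold under E16. A second Krt8 probe set read 175, 31.1 and 10.1 and was at least 2.13-fold lower, and the remaining one read 52.6, 24.4 and 28.8, under the floor. E16 was therefore the highest array for Krt8 by each of its probe sets. Krt7 reached the floor only at E18 (54.6, 95.5 and 17.5), and Krt19 not at all (31.8, 20.1 and 16.5). Krt5 and Krt14 were thus highest at E18, Krt8 was highest at E16, and Krt18 was nearly level until E18; with 1 array per stage this contrast has no test.

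Among the desmosomal cadherins, the adhesive proteins of the desmosome, Dsg2 had the largest difference at the first step. Its signals were 695, 4000 and 1194, 5.75-fold higher at E18 than at E16 and then 3.35-fold lower. It has 6 probe sets; the next brightest gave 373, 2871 and 547 (7.70-fold and 5.25-fold), and the log2 ratio of E18 over E16 in the deposited values was positive in all 6, from 0.54 to 3.41. At P3 against E18, 5 of these 6 ratios were negative and the other was positive, at 0.80; the median over its measured probe sets was -0.92, just under 2-fold. The desmocollins differed less at the first step. Dsc3 read 862, 1262 and 387, 1.46-fold higher and then 3.26-fold lower, and Dsc2 read 222, 340 and 58.0, 1.53-fold higher and then at least 4.14-fold lower. All 3 measured cadherins were lower at P3 than at E18.

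The plaque proteins anchor the cadherins to keratin. Desmoplakin (Dsp), which binds the filaments, read 1452, 5270 and 970, 3.63-fold higher at E18 and 5.43-fold lower at P3. Another Dsp probe set gave 3.74-fold and 5.62-fold, and the remaining one was below the floor on all arrays. Perp, a membrane protein of desmosomes and a target gene of p63, read 413, 2325 and 742, 5.63-fold higher and then 3.13-fold lower. The plakophilins, which cluster desmosomal proteins in the plaque, stayed under 2-fold at the first step. Pkp1 read 627, 741 and 322, and was 2.30-fold lower at P3 than at E18, a call lost with quantile normalization (log2 -0.97). Pkp3 read 259, 429 and 217, 1.98-fold lower at P3, just under the threshold. Pkp2, which is also found outside stratified epithelia, read 87.6, 68.4 and 86.2. With E18 set to the floor its folds were at least 1.07 and 1.05 at the 2 steps. The deposited ratios gave 1.28-fold and 1.26-fold. The plakins of the cornified envelope had the same order of arrays as desmoplakin: periplakin (Ppl) read 259, 368 and 149 (1.42-fold higher, then 2.47-fold lower), and envoplakin (Evpl) 90.0, 128 and 16.2 (1.42-fold higher, then at least 1.56-fold lower). Plakoglobin (Jup), which serves desmosomes and adherens junctions and occurs in endothelium too, had another order. It read 78.4, 201 and 227, at least 2.46-fold higher at E18, and P3 was 1.13-fold above E18; with 2 times the floor the first log2 difference was 0.30 and under 2-fold. Of 8 plaque genes, 3 were higher at E18 and 4 were lower at P3.

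E-cadherin (Cdh1), the defining adhesion protein of epithelium, read 277, 1105 and 387, 3.997-fold higher at E18 than at E16 and 2.86-fold lower at P3. Epcam, an epithelial surface protein, read 1052, 2358 and 368 by its brightest probe set and 621, 2243 and 643 by the other. E18 was above E16 by 2.24-fold and 3.61-fold, and P3 below E18 by 6.41-fold and 3.49-fold. The 2 probe sets placed P3 differently against E16, at 2.86-fold lower and 1.04-fold higher. P-cadherin (Cdh3) was below the floor on all arrays (38.8, 58.3 and 47.0).

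Tight junction genes gave 4 that were measured at each step. Pof1b, an actin-binding junction protein, read 52.6, 461 and 115, at least 5.62-fold higher at E18 and 4.02-fold lower at P3. Occludin (Ocln) reached the floor only at E18 (50.4, 155 and 53.7), at least 1.89-fold above both other arrays. Cldn1 read 311, 321 and 143, 1.03-fold and then 2.25-fold lower, but a second probe set was near the floor and flat (82.8, 82.0 and 91.3), and the median over probe sets at P3 against E18 was -0.51 (log2). Cldn4 read 127, 172 and 121, under 2-fold at each step. Cldn7 (71.8, 29.7 and 48.2) and the scaffold Tjp3 (50.1, 46.8 and 43.6) were below the floor. Of these 4 genes, 1 was higher at E18 and 2 were lower at P3.

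Of 3 regulators measured at each step, 2 were higher at E18 and 2 were lower at P3. Trp63, which encodes p63, the factor that establishes stratified epithelium, read 532, 2400 and 534, 4.51-fold higher at E18 and 4.50-fold lower at P3. A second Trp63 probe set read 93.9, 1093 and 214, 11.6-fold higher at E18 and 5.11-fold lower at P3; 2 others were below the floor. Esrp1, which directs epithelial splicing, read 225, 1563 and 269, 6.96-fold higher and then 5.82-fold lower. Its paralogue Esrp2 was below the floor with E18 highest (21.6, 44.9 and 32.2). Grhl2, a Grainyhead-like activator of junction genes, read 178, 333 and 370, 1.87-fold higher at E18 and 1.11-fold higher again at P3. Another Grhl2 probe set read 241, 171 and 160, with the opposite order of arrays, so no direction can be given for this gene. Grhl3 (32.6, 70.3 and 24.1) and Sfn, an epithelial 14-3-3 protein (16.2, 67.7 and 36.8), were highest at E18 but below the floor.

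**Figure D2:**
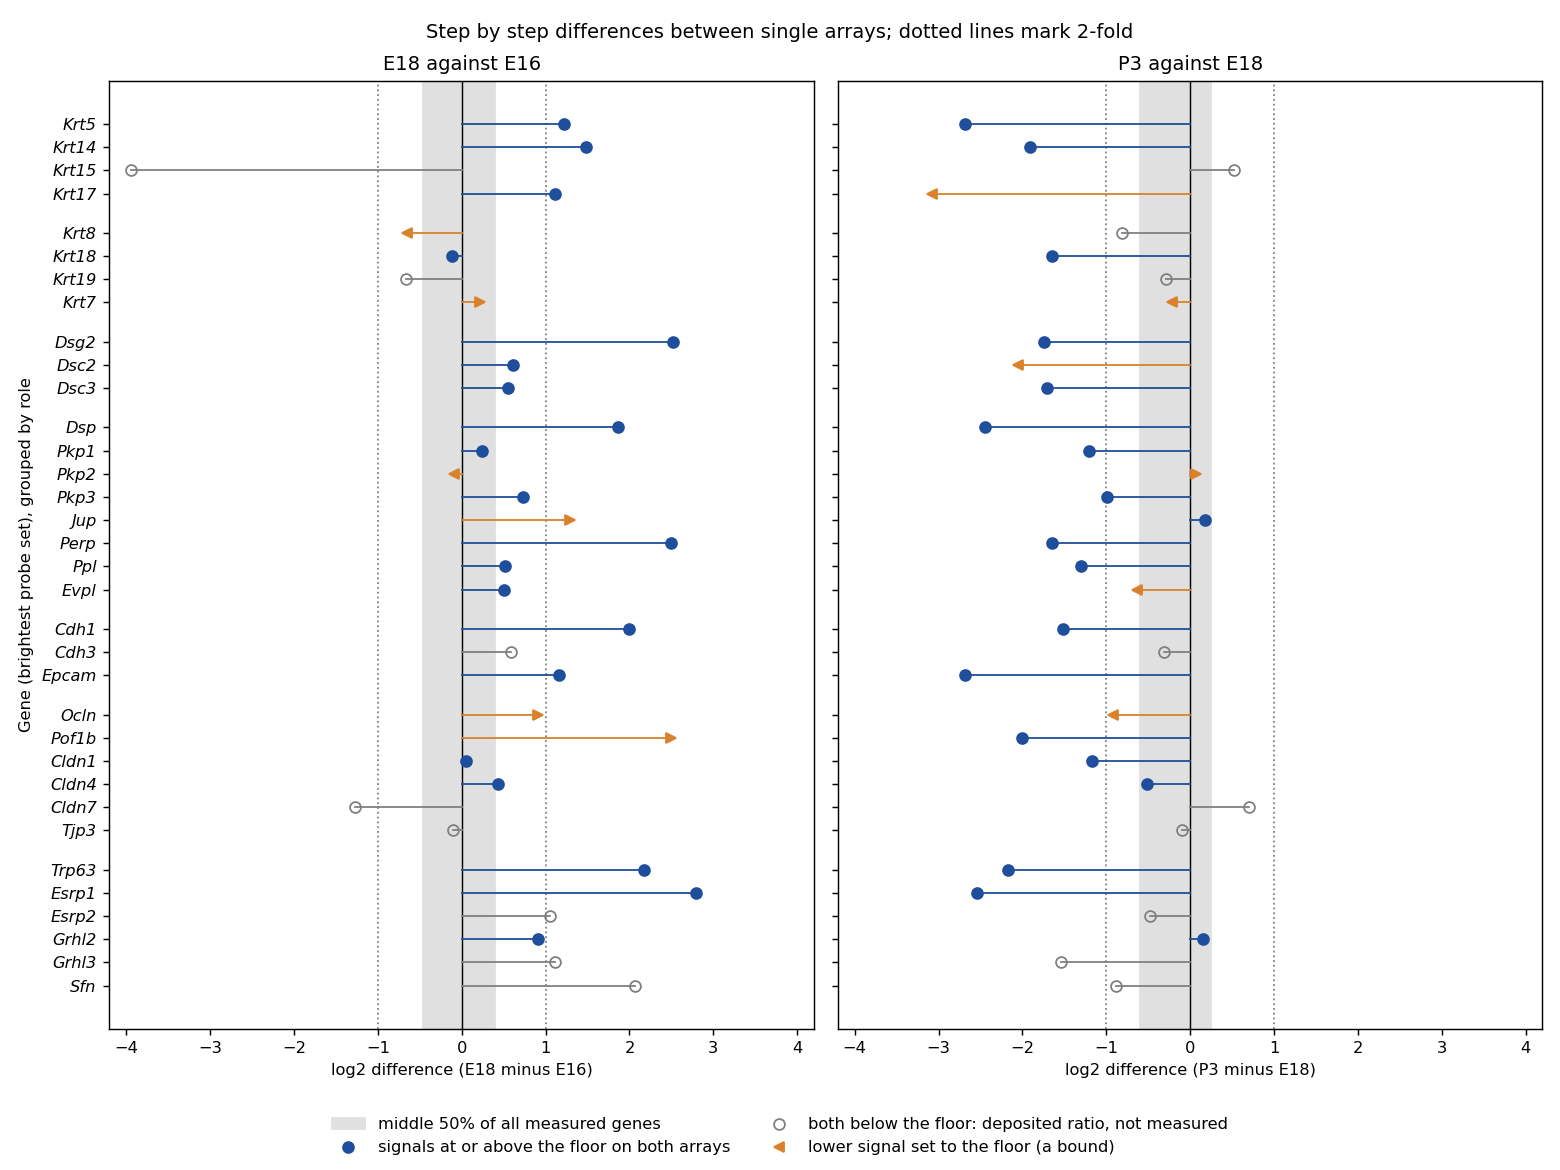
Log2 difference between single arrays for each gene's brightest probe set, E18 minus E16 at left and P3 minus E18 at right, with genes grouped by role; arrows are bounds, open circles are genes below the floor on both arrays, and the grey band holds the middle 50% of all measured genes. Esrp1, Dsg2, Perp and Pof1b lie at 2.49 or more at left, and Krt17 lies lowest at right at -3.08, a bound.

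Several genes have more than 1 probe set, which allows the same transcript to be read again on the same arrays. Of 65 member probe sets, 27 were below the floor on all arrays. Of the 36 measured at E18 against E16, 17 were 2-fold or more higher and 1, for Krt8, was lower. Of the 36 measured at P3 against E18, 22 were lower and 0 higher. The probe sets of Dsp and Trp63 with signal had the same order of arrays as the brightest. In Grhl2 and Cldn1, and in 1 of the dimmer probe sets each of Krt14 and Dsg2, another array than for the brightest was highest, and in Epcam the order of E16 and P3 differed.

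**Figure D3:**
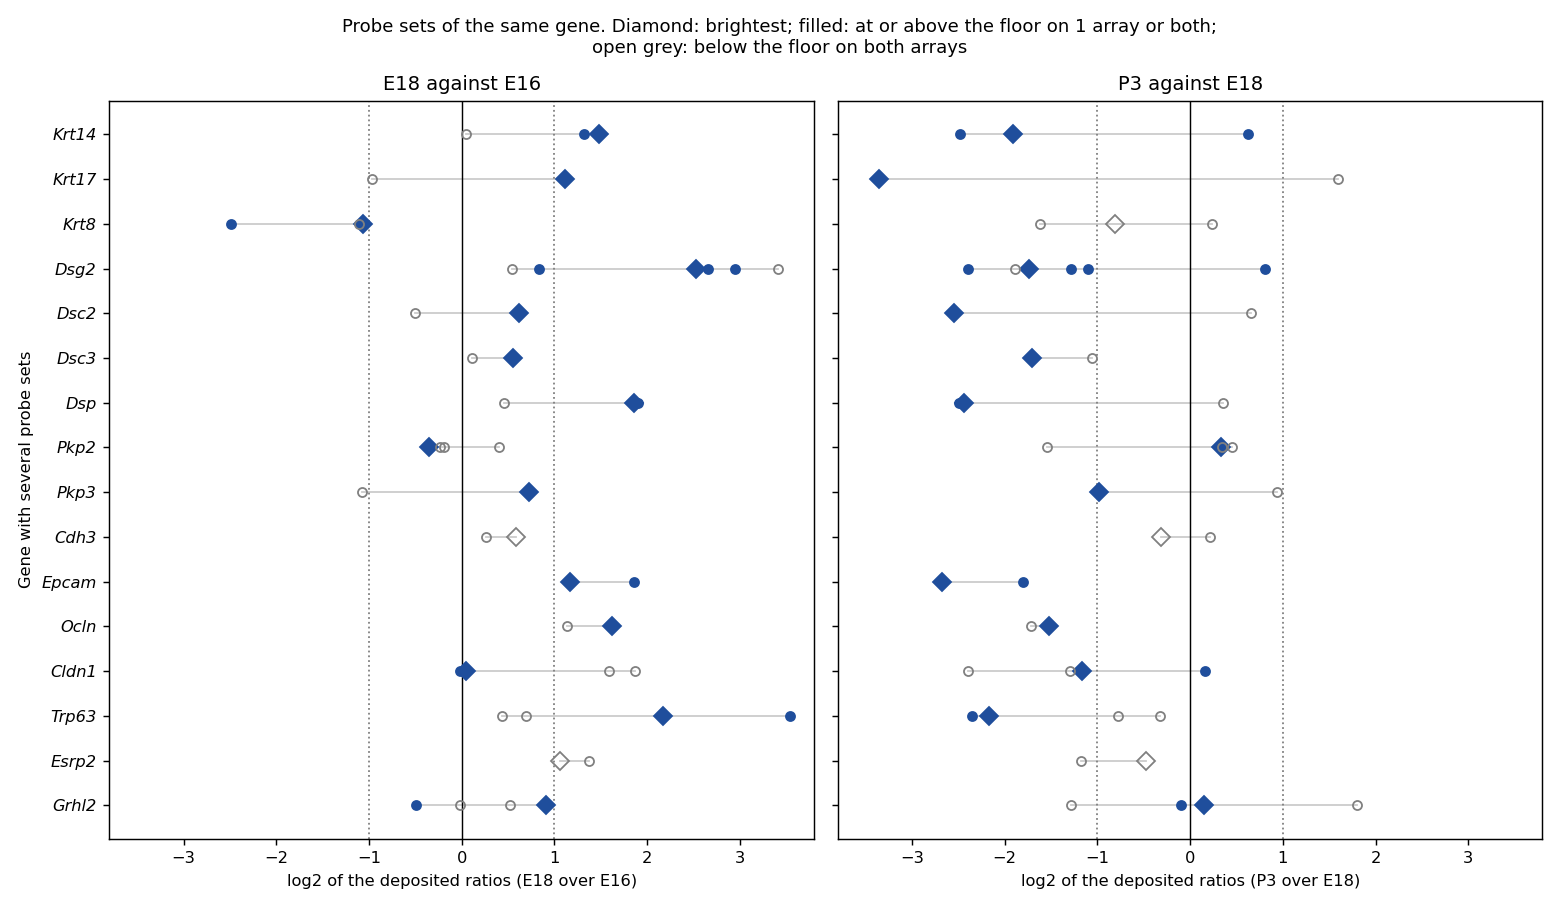
Log2 of the deposited ratios for every probe set of the 16 genes that have several; diamonds are the brightest, filled symbols reach the floor on 1 array or both, and open grey symbols do not. All 6 Dsg2 probe sets lie right of 0 at E18 against E16, whereas Grhl2 probe sets lie on both sides.

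Promoter letters were read as a description of what members share apart from their values. A RefSeq table (build GRCm38.p6) holds the 250 bases before and 50 after the start of 16 member genes. Searched on both strands, the E-box CACCTG was present in 13 of 16 members (81.2%), against 22.6% of 27025 genes. This motif is known to be bound by Zeb and Snail factors, repressors of epithelial genes, and reads CAGGTG where it lies on the other strand. GC content, which bears on such matches, had a median of 58.0% in member promoters and 52.7% in all. Of members with the E-box, Krt5, Epcam, Pof1b, Dsp, Ocln and Cldn4 were highest at E18. Krt7 was too but reached the floor only there, and Grhl3 and Sfn were so only below the floor. Krt18 and Krt8 were highest at E16, as were Cldn7 and Tjp3, both below the floor. The windows below show the E-box, in capitals, in some of these genes, picked by hand. Dsp, Ocln, Cldn4, Krt8, Cldn7 and Tjp3 are not shown. Each window is on its gene's strand and before its start site.
Krt5, chr15:101713016-101713045, minus strand: cacaccactgtgCAGGTGtgctgggtgagc
Epcam, chr17:87635948-87635977, plus strand: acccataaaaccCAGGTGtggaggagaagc
Pof1b, chrX:112698744-112698773, minus strand: acgcaaacctgcCAGGTGaatccgcccctc
Grhl3, chr4:135573634-135573663, minus strand: agttaacatctgCACCTGctgtggtctagc
Sfn, chr4:133602192-133602221, minus strand: tacatgagttctCACCTGaactgtcccagc
Krt7, chr15:101412347-101412376, plus strand: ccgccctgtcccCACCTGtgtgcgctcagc
Krt18, chr15:102027990-102028019, plus strand: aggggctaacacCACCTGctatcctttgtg
The E-box was thus present in both kinds of member. Among members with a promoter, those with no match include Cldn1, highest at E18 by 1.03-fold, and Jup, highest at P3. The E-box is 1 of 10 motifs searched, some of which overlap one another. The Grainyhead-like consensus AACCGGTT was in 0 of 16 members (0.174% of all genes), its looser forms AACNGGTT and AACNNGTT in 1 each (2.35% and 4.77%), and the AP-1 site TGANTCA in 1 (8.97%). The p53-family core ACATGT was in 0 (6.14%), as was its paired form (0.833%). The AP-2 site GCCNNNGGC was in 4 (18.5%), the GC box GGGCGG in 10 (62.5%, against 38.2% of all genes) and TATAAA in 1 (15.7%). A match is a run of letters and binding was not measured. The motifs were chosen with the values known.

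Zeb and Snail factors are best known from mesenchyme. Zeb2 read 404, 401 and 1014, 2.53-fold higher at P3 than at E18 by its brightest probe set, with log2 differences of 0.72, 0.04 and 1.05 by 3 others. Zeb1, named as the paralogue of Zeb2 after its values were seen, read 934, 689 and 729, under 2-fold at both steps; at E18 against E16 other probe sets gave log2 differences of -1.09 and -2.43. Snai2 read 613, 1442 and 900, 2.35-fold higher at E18 than at E16. On the list of mesenchymal counterparts and repressors, 2 of 12 genes were higher at E18 than at E16 and 0 lower (median 0.27). At P3 against E18, 1 of 12 was higher and 0 were lower, with a median of 0.10. Over all measured genes, 8.1% were higher and 8.13% lower at the first step, and 4.07% higher and 11.8% lower at the second. The counts of the lists that follow are to be read beside these same shares.

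Further epithelial genes were counted on lists of their own. Of 18 measured genes of broad epithelial expression, 5 were higher at E18 than at E16 and 0 lower (median 0.75), and at P3 against E18 8 of 18 were lower and 0 higher (median -0.87). The protease inhibitor Spint2 read 613, 1881 and 248, and the kinase Ripk4 read 260, 704 and 139. Of hemidesmosome and basement membrane genes, which attach epithelium to its base, 4 of 8 were higher at E18 and 0 lower (median 0.97), and 3 of 9 were lower and 1 higher at P3 (median -0.95). The laminin chain Lamb3 read 113, 427 and 112, and collagen XVII (Col17a1) 83.9, 311 and 161. Of further keratin, desmosome and junction genes, 4 of 23 were higher at E18 and 0 lower (median 0.47), and 8 of 21 were lower and 2 higher at P3 (median -0.70). Dystonin (Dst), whose epithelial form links keratin to hemidesmosomes, read 216, 1396 and 245; another probe set was higher at both steps, with log2 differences of 0.73 and 1.16. The tight junction protein F11r read 173, 582 and 91.9, but its other probe set differed little (0.34 and -0.03), and the suprabasal keratin Krt10 read 358, 1310 and 230.

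Genes that place the epithelium in the tooth gave 3 of 10 higher and 0 lower at E18 (median 0.57) and 5 of 10 lower and 0 higher at P3 (median -1.18). Tbx1, a regulator of dental epithelium, read 143, 576 and 109, and Sostdc1, a secreted inhibitor of Bmp and Wnt signals, 2654, 2239 and 623. Of periderm and cornified markers 1 of 8 was higher at E18 (median 0.17) and 3 of 7 were lower at P3 (median -0.16). Krt10, Krt6a, Krt4, Krt13 and Krt1 were listed among the further keratins too. Lor read 332, 554 and 116 by its brightest probe set, 1.67-fold higher at E18 and then 4.79-fold lower. Another Lor probe set gave log2 differences of 1.20 and -1.95. Krt6a read 333, 321 and 135, 2.39-fold lower at P3 than at E18. On this list 0 of 8 were lower at E18 and 0 of 7 higher at P3. Ivl, Flg, Krt1, Sprr1b and Krtdap were below the floor on all arrays. Ameloblast genes had another order of arrays than the junction genes: 3 of 5 were higher at E18 and 0 lower, and 4 of 7 were higher at P3 and 1, Odam, lower. Amelx, an enamel matrix protein, read 51.5, 565 and 2340, and the enamel protease Mmp20 48.1, 87.5 and 2367. Odam, a protein of maturation stage ameloblasts and junctional epithelium, read 10.8, 492 and 83.7.

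Markers of other cell types differed between the arrays as well, and their part in the results was not tested. Of 11 papilla transcription factors, 7 were lower and 1 higher at E18 than at E16 (median -1.59). At P3 against E18, 1 was higher and 1 lower (median 0.07). Lhx6 read 1675, 376 and 364. Dlx2, the 1 that was higher at E18, was also the 1 lower at P3, and read 294, 2489 and 989. The summed signal of these 11 factors was 12466, 6984 and 6876. Of 7 measured endothelial markers 4 were lower at E18 and 0 higher (median -1.07), and 0 of 7 reached 2-fold at P3 against E18 (median 0.48); Pecam1 and Tie1 were below the floor on all arrays, and the summed signal was 4497, 2224 and 2391. Of macrophage markers 4 of 8 were higher at E18 (median 0.89) and 3 of 10 at P3 (median 0.64), with 0 lower at either step and a summed signal of 1989, 4164 and 8132. Such sums weight genes by signals that may be understated, by a factor of each gene's own. Of 8 odontoblast genes 4 were higher and 1 lower at each step (medians 1.23 and 1.16). Only 2 of 6 Schwann cell and glia markers were measured at each step, Sox10 and Erbb3, with 0 reaching 2-fold. Erbb3 was counted among the genes of broad epithelial expression too.

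**Figure D4:**
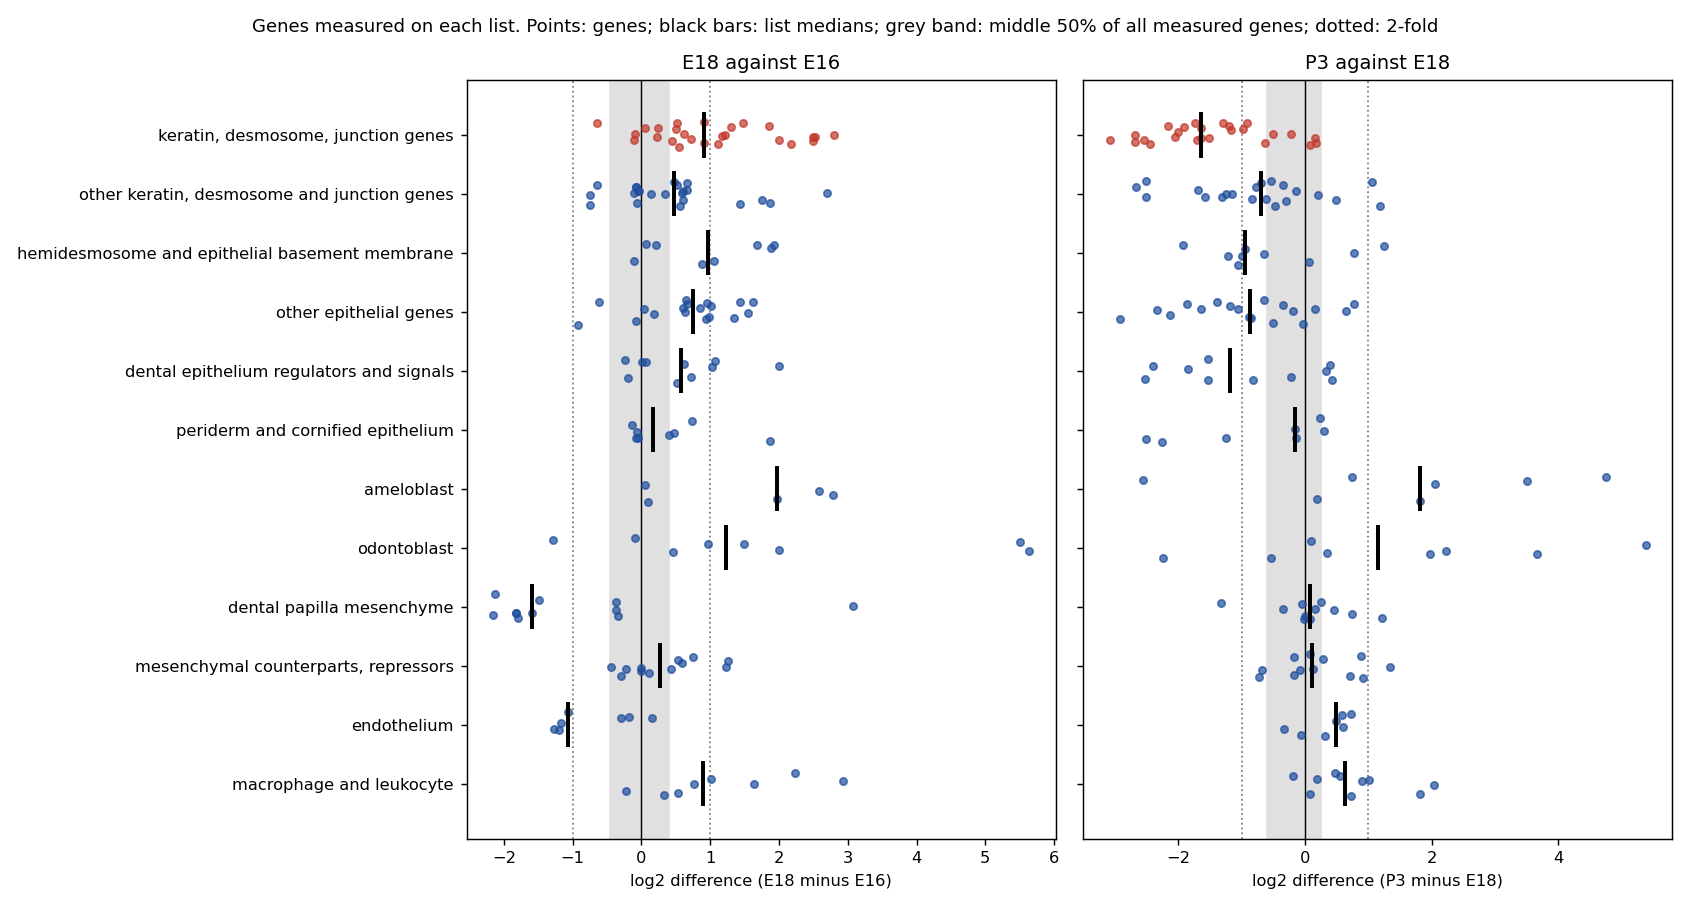
Log2 differences of the genes measured on each list, E18 minus E16 at left and P3 minus E18 at right; points are genes, black bars list medians, the grey band the middle 50% of all measured genes and dotted lines 2-fold. The keratin, desmosome and junction genes have medians of 0.91 and -1.64, while those of ameloblast genes are 1.97 and 1.81 and those of papilla transcription factors -1.59 and 0.07.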

How the data were processed

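RNA of 3 samples was read on oligonucleotide arrays, 1 per stage; the submitters' processing notes name GCOS and give no version for it. The deposited values are ratios: in 40754 of 45101 probe sets (90.4%) each value had been divided by the middle of the 3, as worked out from the values, and the scaling between arrays is not given in the sources used here. In the other 4347, values were whole steps of 1 size per array, which gave array factors of 0.718 (E16) and 1.08 (E18) relative to P3. For centred probe sets the signal is the smallest set of whole steps of 0.1 that gave the ratios within a relative 3e-07; of 65 member probe sets, 14 have over 0.01 expected chance solutions and may be understated, as may any by a shared factor. The check on simulated data asked whether known differences were found again. Ratios between arrays are kept at any recovered level, so that check cannot show that the levels are right.

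Differences are log2 ratios of signals floored at 82.0, called at 2-fold. Brightest probe sets stood for genes. Of all probe sets other than 64 controls, 34945 have 1 symbol, 932 several and 9160 none in the table. Positions are given only for promoter windows, from the RefSeq table's build. Of 35 members, 16 matched the RefSeq promoter table. All members are named. Genes of other lists given with values were chosen among the 4 with the largest difference on each list. Exceptions stated as such and markers below the floor were added. Not all of those 4 are given: Fgf9, Enam and Tgfbi are among those left out. From the odontoblast and macrophage lists no gene is given. The 8 alternatives change the scaling, floor, filter or probe set. Members and lists were chosen with earlier results of these data known. Computation used Python 3.11.15 and numpy 2.4.6.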

Additional observations from a re-analysis of the deposited data

How the results depend on the processing

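A total of 7 alternatives were planned, and 1, centring on the genes that reached the floor on every array, was added after the data were seen. Under all 8, the counts of members higher at E18 than at E16 and lower at P3 than at E18 stayed within 1.5 times of the reported 12 and 17, and the medians kept their sign. Members lower at E18 than at E16 were 1 of 33 with a floor of 41.0 and 3 of 34 with no floor and no filter. The shares of all genes were 8.51% and 12%. At P3 against E16, members higher were 4 of 24 after quantile normalization, 4 of 24 after centring and 4 of 34 with no floor. The shares of all genes were 10.1%, 10.3% and 11.6%. Members higher were 1 of 19 with 2 times the floor and 1 of 24 with the median over probe sets. Without probe sets ending in _s_at or _x_at they were 1 of 22. The shares of all genes in these 3 settings were 6.03%, 5.39% and 6.35%. Members lower were 4 of 19 with 2 times the floor and 11 of 34 with no floor, against 16.8% and 16.4% of all genes. Quantile normalization moved the share of higher genes among all called from 25.7% to 47.8% at P3 against E18 and from 29.6% to 48.8% at P3 against E16. Centring gave 45.1% and 51.7%, and put the all-gene median at 0.05 in place of -0.15 for P3 against E18 and at 0.09 in place of -0.17 for P3 against E16. Median scaling changed little, since array medians were already 81.8 to 82.3. Of 580 values of single members under the alternatives, 18 fell under 2-fold and 21 passed it. Those under it at E18 against E16 were Jup (2 times the floor); at P3 against E18 Pkp1 (quantile, centring), Cldn1 (2 times the floor, centring, median over probe sets) and Dsg2 (median over probe sets); and at P3 against E16 Krt17, Dsc2, Dsc3, Jup, Epcam, Cldn1 and Grhl2. The cause was not tested. No paired analysis was possible because each stage has 1 array. Low recovered signal, which may be understated, limits the 8 members below the floor on every array.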
